A study of Rattus norvegicus with 4 samples.

Results

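Transferrin (Tf), fetuin-B (Fetub), alpha-fetoprotein (Afp), alpha-1-acid glycoprotein (Orm1), alpha-2-macroglobulin (A2m), beta-2-glycoprotein I (Apoh) and apolipoprotein E (Apoe) are plasma proteins made largely by hepatocytes. Their ratios were read in livers of rats given ciprofibrate against livers of control rats. The 7 genes were chosen from measured ratios of these same arrays, so their values are a description. Where the text counts how many of them passed a threshold, the count is given beside that of all clones and nothing is read from it. They stand among 3102 genes that carry a symbol of their own in the platform annotation. They were found by symbol on 15 printed spots of the cDNA array. Of these spots, 13 carried a ratio on all 4 arrays and 2, both listed for Afp, on none. The spots belong to 7 cDNA clones, 1 per gene, and 6 of the clones list a single symbol. The clone for A2m also lists Mug1l1, the related alpha-1-inhibitor III, so its values belong to either gene or both. Each array compared total liver RNA of 1 female Fischer rat, given ciprofibrate at 50 mg per kg of body weight per day over 60 days, with 1 pool of total liver RNA from 5 control rats. There were 4 treated arrays, named replicates 1 to 4 in the order of the samples. The labels speak of 4 dosed rats without saying which array holds which. Arrays were therefore treated as separate animals, and the spread between them would be technical if an animal had been used again. They give neither the age of the rats nor the vehicle or feeding of the controls. The series title asks which gene expression ciprofibrate stimulates in rats.

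Ciprofibrate is a fibrate drug that activates PPARα, a nuclear receptor of fatty acid metabolism in the liver. Hepatocytes secrete carriers, protease inhibitors and lipoprotein proteins into plasma, and during an acute phase response they raise some of them and lower others. In the rat Orm1 and A2m are classic positive acute phase genes, transferrin is usually counted among the negative ones, and Afp belongs to the foetal liver and to some liver tumours. All values below are log2 of the ratio of the 2 RNA samples on a spot, centred on the median of the array. The direction of the ratio is not stated. A positive value is read as likely higher in the ciprofibrate livers, because the dosed rat's liver is listed as the first channel and because 11 of 16 measured genes from a panel of textbook peroxisome proliferator targets had a positive mean and 5 a negative one. The panel had 11 positive means also with a position surface removed, and 12 without replicate 2. Of the 16, Acot2 was a negative call at -0.39, and Cpt1a was one at -0.35 with the surface removed. Clones that list several symbols were outside this count. Those of Cyp4a2 and Cyp4a3, of Acot1 and Acot3, and of Cyp4a1 were at 0.89, 0.89 and 0.31. All these were named after their values were seen. If the direction were the opposite, every sign below would turn.

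Promoters of 5 of the 7 genes were found in RefSeq's table for the GRCr8 build, from 250 bases before to 50 bases after the annotated start. Tf, Afp and Orm1 are shown, because Tf had the lowest mean ratio of the 7 clones and Afp the highest, and Orm1 was the other positive clone with a single symbol. Each is written 5′ to 3′ on its own strand, and capitals mark every match to the motifs searched on both strands.
Tf, chr8:112695327-112695626, minus strand: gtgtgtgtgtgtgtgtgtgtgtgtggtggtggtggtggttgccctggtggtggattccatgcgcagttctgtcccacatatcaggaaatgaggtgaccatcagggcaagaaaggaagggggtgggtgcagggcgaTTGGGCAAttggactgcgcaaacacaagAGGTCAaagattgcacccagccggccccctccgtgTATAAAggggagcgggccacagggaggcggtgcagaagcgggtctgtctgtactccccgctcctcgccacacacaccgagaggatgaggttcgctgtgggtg
Afp, chr14:17875596-17875895, minus strand: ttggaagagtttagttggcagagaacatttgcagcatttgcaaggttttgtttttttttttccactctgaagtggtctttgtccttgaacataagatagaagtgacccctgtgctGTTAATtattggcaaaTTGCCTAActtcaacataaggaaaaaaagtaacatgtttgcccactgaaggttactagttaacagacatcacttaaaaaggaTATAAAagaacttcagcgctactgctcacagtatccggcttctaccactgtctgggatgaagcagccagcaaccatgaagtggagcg
Orm1, chr5:81788259-81788558, plus strand: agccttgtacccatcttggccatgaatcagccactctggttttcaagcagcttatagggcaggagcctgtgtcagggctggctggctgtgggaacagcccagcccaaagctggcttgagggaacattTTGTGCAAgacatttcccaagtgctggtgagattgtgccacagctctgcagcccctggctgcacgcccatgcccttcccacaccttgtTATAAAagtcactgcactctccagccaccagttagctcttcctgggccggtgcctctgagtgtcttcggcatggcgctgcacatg
The motifs were GTTAAT, part of an HNF1 site, AGGTCA, the core of HNF4 and PPAR sites, its direct repeat AGGTCANAGGTCA, TTGCNNAA for C/EBP, TTCNNNGAA for STAT, and the box TATAAA. No matches overlapped in these 3 promoters. The last of these stood in all 3, ending 47 bases before the start in Tf, 32 before it in Afp and 30 before it in Orm1, while 14.2% of all 33469 promoters of this length held one. A C/EBP match was also in all 3, against 10.6% of all promoters. Tf alone of the 3 held AGGTCA (16.2% of all promoters) and Afp alone held GTTAAT (7.45%). Of the other entries, that of Apoh held 1 STAT match (8.87% of all promoters) and none of the 3 entries of Apoe held any motif. The direct repeat was in no member's entry and in 0.0538% of all promoters. These matches are letters in a window and say nothing of binding.

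Tf, the iron carrier of plasma, had ratios of -0.50, -0.94, -0.77 and -0.57 on replicates 1 to 4. It was negative on each array, with a mean of -0.69 ± 0.20 (log2, SD, n = 4), a linear ratio of 0.618. Its mean was the 282nd lowest of the 4704 clones with a value on all arrays. Its 2 spots lay close together, at -0.74 and -0.64 on average.

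Apoe is the lipoprotein ligand by which remnants are taken up through the LDL receptor family, and macrophages make it as well as hepatocytes. Its ratios were -0.06, -1.20, -0.39 and -0.53, close to 0 on replicate 1 and far below it on replicate 2. The mean was -0.54 ± 0.48 (SD, n = 4), and without replicate 2 it was -0.33 ± 0.24 (SD, n = 3), less by over 1.5 times. Apoh, a phospholipid-binding plasma protein that associates with lipoproteins, had ratios of -0.19, -1.18, -0.56 and -0.55. It too was lowest on replicate 2, with a mean of -0.62 ± 0.41 (SD, n = 4). The 2 spots of Apoh parted on that array, at -0.64 and -1.73, while those of Apoe were at -1.28 and -1.12. Over the arrays the spots of Apoh differed by 0.36 on average, more than 94.4% of the 1600 clones with 2 measured spots, whose median difference was 0.0965 (log2).

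Fetub, a liver protein of the cystatin superfamily that inhibits the egg protease ovastacin in the mouse, rested on 1 spot. Its ratios were -0.37, -1.25, -0.69 and -0.34, with a mean of -0.66 ± 0.42 (SD, n = 4). Replicate 2 was again the lowest, and without it the mean was -0.46 ± 0.19 (SD, n = 3).

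The other 3 clones were positive on every array. Orm1, a plasma glycoprotein that binds drugs and lipids, had ratios of 0.29, 0.66, 0.28 and 0.46. Replicate 2 was the highest of the 4, and the mean was 0.43 ± 0.18 (SD, n = 4), a linear ratio of 1.34. The clone for A2m, a broad protease inhibitor of plasma, and Mug1l1 had ratios of 0.34, 0.75, 0.35 and 0.47, with a mean of 0.48 ± 0.19. Its profile was the nearest of any member's to that of Orm1, with a root mean square difference of 0.0607 over the 4 arrays.

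Afp, the foetal plasma protein related to albumin, had ratios of 0.42, 0.83, 0.45 and 0.44. Replicate 2 stood well above the other 3, which lay within 0.0128 (SD) of their mean of 0.44. The mean of all 4 was 0.53 ± 0.20 (SD, n = 4), a linear ratio of 1.45. The annotation lists 4 spots for this clone, in 2 printing blocks, and those without a ratio were missing on every array. Of 1950 listed clones with more than 1 spot, 23 (1.18%) had such a mixture. Whether the 4 spots hold the same cDNA was not tested.

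Of the 7 clones, 3 passed the limma threshold (adjusted p under 0.05) as positive and 3 as negative, where 13.6% and 15% of all 4704 clones did (28.6% either way). These ratios chose the genes. Apoe was the clone that did not pass. The median of the 7 means was -0.54, against -0.0099 over all clones (log2). With 4 negative and 3 positive clones this median is the mean of Apoe, and no shift of the group is read from it.

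**Figure D1:**
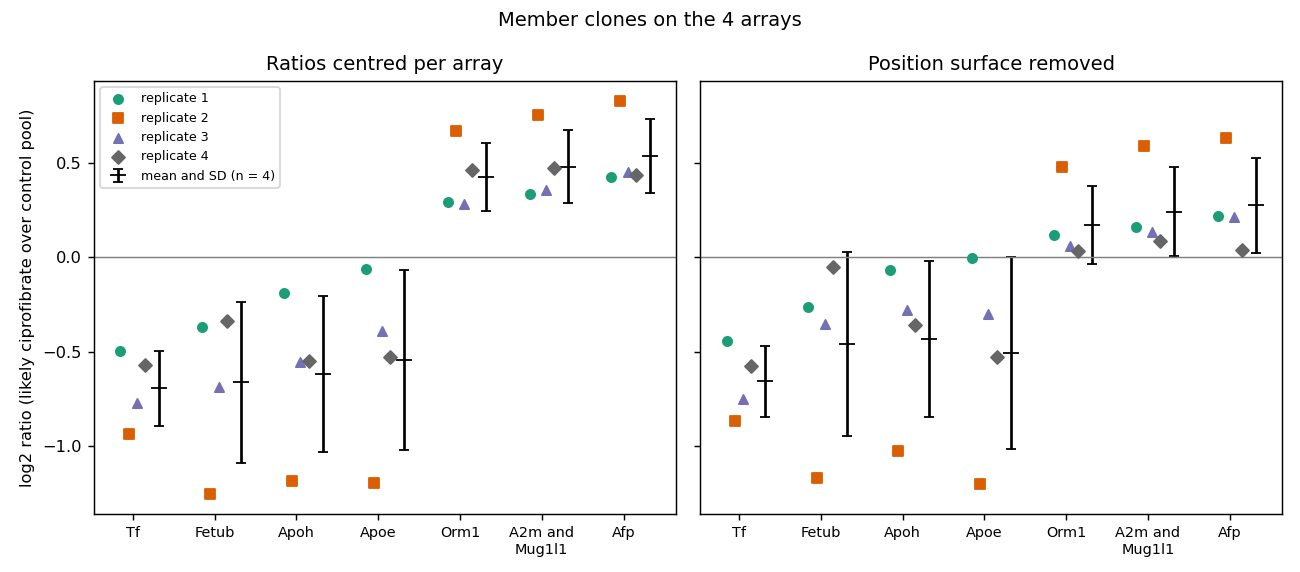
Log2 ratios of the 7 member clones on the 4 arrays, with the mean and SD (n = 4), after centring per array on the left and after the position surface was taken off as well on the right. Replicate 2 is the lowest array for Tf, Fetub, Apoh and Apoe and the highest for Orm1, the clone of A2m and Mug1l1, and Afp, and the means of the last 3 are smaller on the right.

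The sign of a member went with its inferred place on the slide. The spots were taken as 8 blocks in 2 columns, odd blocks on the left and even ones on the right. This layout was inferred from the values. Spots 31 apart correlated at 0.16, 0.08, 0.30 and 0.36 on replicates 1 to 4, and spots 30 apart at 0.14, 0.05, 0.31 and 0.32. Such a repeat is weak and does not give the columns, so the split may itself rest on the values compared below. The 6 measured spots of the 3 positive clones were all in block 7, in the left column, and the 7 spots of the 4 negative clones were in blocks 4, 6 and 8, in the right column. Of 2375 clones tested in the left column, 25.5% were positive and 8.13% negative calls, and their median ratio was 0.15. Of 2309 in the right column, 1.39% were positive and 22.1% negative calls, at a median of -0.16. For the 14 clones printed in both columns, the median of left minus right was 0.26, 0.04, 0.47 and 0.54 on replicates 1 to 4. It was higher on the left for 11, 8, 13 and all 14 of them.

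Spots around the members gave the same picture at close range. Within 3 rows and 3 columns of the 2 Orm1 spots, the medians of other clones averaged 0.31 and 0.33, against 0.42 and 0.43 for Orm1 itself. Around the Afp spots they averaged 0.36 and 0.23, against 0.52 and 0.54, and around those of A2m and Mug1l1 0.33 and 0.27, against 0.53 and 0.43. The excess over the surroundings was therefore between 0.097 and 0.31 for the positive members. On the negative side the surroundings lay closer to 0, between -0.20 and 0.06. Tf was lower than its surroundings by 0.68 and 0.50 at its 2 spots, Apoe by 0.54 and 0.57, Fetub by 0.47, and Apoh by 0.29 and 0.61.

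**Figure D2:**
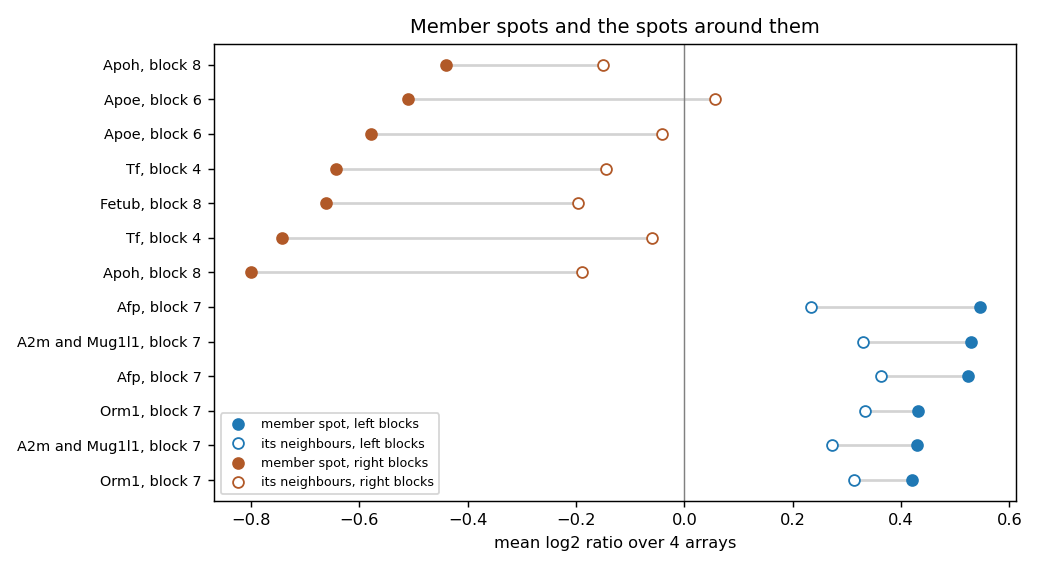
Mean log2 ratio over 4 arrays of each of the 13 measured member spots (filled) and the mean over arrays of the median of its neighbours within 3 rows and columns (open), coloured by the column of blocks. Neighbours of the left-column spots lie at 0.23 to 0.36, and those of the right-column spots between -0.20 and 0.06.

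With a robust loess surface over the positions removed from each array, all 7 clones kept their sign. Tf was at -0.66 ± 0.19 (SD, n = 4), almost as before, and its 4 arrays lay between -0.87 and -0.44. Apoe was at -0.51 ± 0.51, Fetub at -0.46 ± 0.49 and Apoh at -0.43 ± 0.41, each with 1 array close to 0. Afp was at 0.27 ± 0.25, the clone of A2m and Mug1l1 at 0.24 ± 0.23, and Orm1 at 0.17 ± 0.21, all 3 more than 1.5 times smaller than with the surface kept. Of the 7, 1 was then past the limma threshold (Tf), beside 2.85% positive and 11.3% negative calls (14.1% either way) among all clones, and nothing is read from this count either.

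Replicate 2 carried the widest member ratios in both directions, and it also had the widest ratios of all spots, with a median absolute deviation of 0.57 against 0.26, 0.38 and 0.47 on replicates 1, 3 and 4. Brought to one spread, the 7 means lay between -0.69 for Tf and 0.52 for Afp, with Apoe at -0.46. Within its own array, Apoe was at the 39.6th percentile of clones on replicate 1 and at the 2.5th on replicate 2, and Afp at the 95.4th and 99.4th. Tf varied least in this measure among the negative members, between the 6.0th and the 12.6th percentile.

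Other secreted liver genes tended to low ratios on replicate 2, where 4 of the members were at their lowest and the other 3 at their highest. The 4 lists of plasma carriers, acute phase proteins, protease inhibitors and apolipoproteins, without the members, held 81 genes, of which 38 were measured. They are called secreted liver genes here, though the last list also held genes of lipoprotein remodelling. Scarb1, among these, is also on the list of receptors and is not a secreted protein. Of the 38, 20 (52.6%) had their lowest ratio on replicate 2, against 31.4% of all 2644 genes, and 17 (44.7%) were under -0.5 there, against 21.6% of all genes. Their median was -0.07, -0.44, -0.04 and -0.01 on replicates 1 to 4. Chosen after their values were seen, Alb, the main plasma protein, was at -1.57 on replicate 2 and between -0.41 and 0.12 on the others, and Serpina1, the antitrypsin, at -1.53 and between -0.73 and 0.12. The 6 measured of 15 hepatocyte markers, which include Alb, averaged -0.07, -0.53, -0.14 and -0.16 over the arrays, and 0 passed the limma threshold (1, Ass1, had an unadjusted p under 0.05, at -0.40). On replicate 2 Alb, Ass1 and Apoa1 were at -1.57, -0.99 and -0.72, while G6pc1, Cyp2e1 and Hpd were at -0.10, -0.10 and 0.27. Their part in the members' ratios was not tested. In bulk liver, fewer cells of a type and less RNA per cell cannot be told apart, and the table holds ratios without levels, so no marker could be checked for presence.

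**Figure D3:**
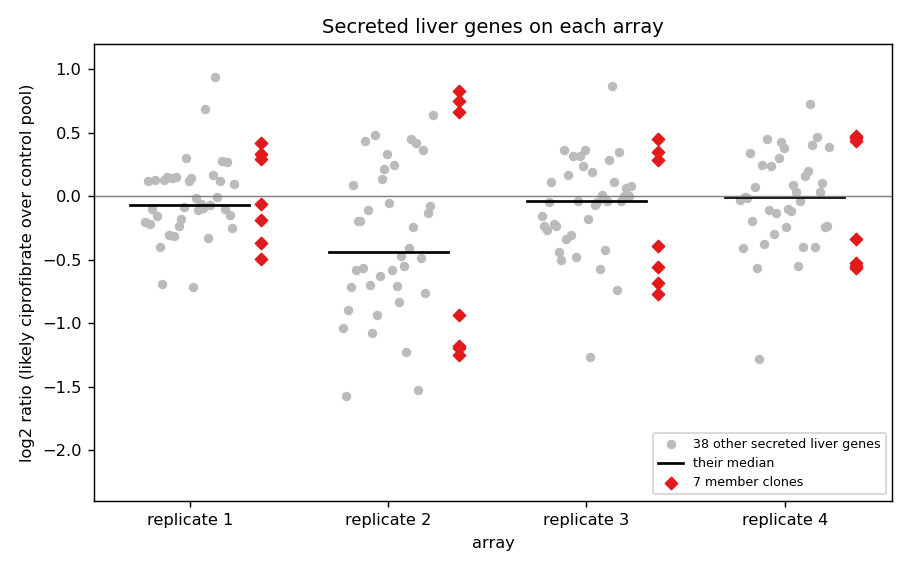
Log2 ratios of the 38 other secreted liver genes (grey, with their median as a bar) and of the 7 member clones (red) on each array. The median of the grey points is -0.44 on replicate 2 and between -0.07 and -0.01 on the other arrays, and the red points are spread most widely on replicate 2.

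As a whole the 38 genes gave 5 positive and 5 negative calls and a median mean of -0.13, where 17.1% of all genes were called positive and 16.6% negative (33.7% either way) and the median of all genes was 0.0082. With the position surface removed they gave 0 positive and 2 negative calls (limma, adjusted p under 0.05) at a median of -0.18, where the shares among all genes were 4.24% and 13.5% (17.7% either way). At an unadjusted p under 0.05 it was 5 positive and 11 negative. The share of all genes at that unadjusted threshold was not counted, so the shares above are no measure for such counts. Nothing is read from them, here or for any list. The mean was below 0 for 23 of the 38, and for 28 with the surface removed. Of the 11 printed in the left column, 4 had a mean below 0 with the surface kept and 9 without it. Of the 26 in the right column it was 18 both ways.

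**Figure D4:**
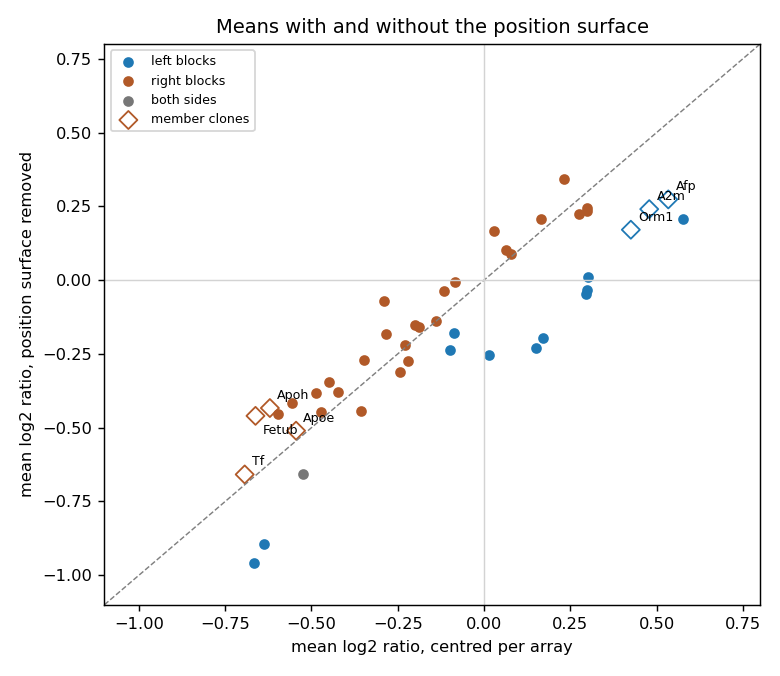
Mean log2 ratio of the 38 other secreted liver genes (points) and the 7 member clones (diamonds, with A2m standing for the clone of A2m and Mug1l1) with the position surface kept (horizontal axis) and removed (vertical axis), coloured by column of blocks; the dashed line marks equal values. Points of the left column lie below the line, and Tf and Apoe lie close to it.

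Among 12 measured carriers other than Tf, 4 were positive and 1 negative, and 0 were called by limma without the surface, where 1 positive and 4 negative had an unadjusted p under 0.05. Hpx, the haem carrier, was at 0.30 ± 0.09 (SD, n = 4) and Igfbp2, a carrier of insulin-like growth factors, at 0.30 ± 0.12. Without the surface both were near 0, Hpx at -0.05 and Igfbp2 at -0.03. Their calls also ended without replicate 1, 3 or 4, at 0.30, 0.31 and 0.25 for Hpx and 0.36, 0.28 and 0.27 for Igfbp2. Pon1, a paraoxonase carried on HDL, was at -0.60 ± 0.43. Its call ended without the surface (-0.45) and without replicate 1 (-0.69) or 3 (-0.65). Replicate 2 was its lowest array, at -1.23, and without it the mean was -0.38, still a call.

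Of 18 other acute phase genes 3 were positive and 3 negative, or 0 and 1 without the surface (limma, with 1 and 8 at an unadjusted p under 0.05). The list was not split into genes raised and genes lowered in an acute phase response, so these counts do not read as such a response. Rbp4, the retinol carrier, was at 0.58 ± 0.55 (SD, n = 4). On replicate 2 it was negative, at -0.24, and on the other arrays it lay between 0.73 and 0.94. Its call ended without the surface (0.21) and without replicate 1 (0.45), 3 (0.48) or 4 (0.52). Without replicate 2 the mean was 0.85 ± 0.11, still a call. Itih4, an inter-alpha-inhibitor heavy chain, was at -0.67 ± 0.48 and at -0.96 without the surface, where it was still called; its call ended without replicate 1 (-0.65) or 3 (-0.47). Mug1, a murinoglobulin of the A2m family, was at -0.42 ± 0.23, opposite in sign to the clone of A2m and Mug1l1. Mug1 was printed in the right column. It was at -0.38 without the surface (limma adjusted p = 0.0553), -0.37 without replicate 3 and -0.38 without replicate 4, and its call ended in each case. The 11 protease inhibitors gave 0 positive and 2 negative calls (Itih4 and Mug1). Itih4 held without the surface, with 0 positive calls there (limma, with 1 positive and 4 negative at an unadjusted p under 0.05). With the surface kept, 2 were positive and 3 negative at an unadjusted p under 0.05. The positive ones were Pzp at 0.28 and Timp1 at 0.30 (0.19 without replicate 2). Serpina1, at -0.64, was negative beside Itih4 and Mug1. Pzp, Timp1 and Serpina1 were named after their values were seen.

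Of 13 apolipoprotein and lipoprotein genes other than the members, 0 were positive and 2 negative by limma (0 and 4 at an unadjusted p under 0.05). Without the surface it was 0 and 1, with 2 positive and 2 negative at an unadjusted p under 0.05. Apod, a lipocalin of HDL, was at -0.47 ± 0.21 (SD, n = 4) and Pon1 is given above. Apod was still called without the surface, at -0.45 ± 0.19, while its call ended without replicate 1 (-0.40), 3 (-0.48) or 4 (-0.44). Apoa1, the main HDL protein, was at -0.22 ± 0.33 and not called, and at -0.05 without replicate 2.

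Of the receptors that bind the members, those for transferrin and LDL were not among the genes measured under a symbol of their own. In the wider list of 7 measured receptors and partners, 1 was positive and 1 negative, with and without the surface. Sdc1, a heparan sulfate proteoglycan that takes up lipoprotein remnants with apoE, was at -0.70, -0.71, -0.96 and -0.87, low on all arrays. Its mean was -0.81 ± 0.13 (SD, n = 4, limma adjusted p = 0.0033), and it was still called without the surface (-0.77) and without any 1 array. Cubn, cubilin, an endocytic receptor that binds transferrin in the kidney, was at 0.39 ± 0.14 and at 0.33 without the surface, where it was called. Its call ended without replicate 3 (0.39) or 4 (0.41).

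Genes of iron and haem handling gave 3 positive and 0 negative limma calls of 12 (4 and 3 at an unadjusted p under 0.05). Without the surface it was 0 and 2 (2 and 2 at an unadjusted p under 0.05). Bmp6, the signal that raises hepcidin, was at 0.58 ± 0.21 (SD, n = 4) and Hmox2, a haem oxygenase, at 0.37 ± 0.18. Without the surface both calls ended, at 0.23 and 0.15, and that of Hmox2 also without replicate 3 (0.39) or 4 (0.33). The calls without the surface were Aco1, the iron-responsive cytosolic aconitase, at -0.51 and Alas1, which starts haem synthesis, at -0.44; both were named after their values were seen.

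Of 14 regulators of liver secretory genes 3 were positive and 2 negative, or 0 and 4 without the surface (limma; 3 and 5 at an unadjusted p under 0.05). Those 4 were Nr1h2, Cebpd and, named after their values were seen, Stat5b at -0.37 and Nr3c1 at -0.32. Nr1h2, the oxysterol receptor LXRβ, which activates Apoe in macrophages, was at -0.80, -1.73, -1.09 and -1.15 on replicates 1 to 4. Its mean was -1.19 ± 0.39 (SD, n = 4, limma adjusted p = 0.0033), and -1.40 without the surface. Cebpd, C/EBPδ, a transcription factor induced in the acute phase, was at -0.61 ± 0.12 and at -0.56 without the surface. Both were called without the surface and without any 1 array. Cebpb, C/EBPβ, named after its values were seen, went the other way. It was a positive call at 0.43 ± 0.29 that ended without the surface, at 0.05. The cytokines Il1b, at 0.41 ± 0.15, and Tnf, at 0.35 ± 0.14, were positive calls that ended without the surface (0.23 and 0.28). Il1b also lost its call without replicate 3 (0.46) or 4 (0.35), and Tnf without replicate 1 (0.39), 3 (0.35) or 4 (0.37).

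Genes that fold and export secreted proteins gave 4 positive and 1 negative call of 17, or 0 and 1 without the surface (limma; 3 and 2 at an unadjusted p under 0.05). Copb2, a coat protein of Golgi vesicles, was at -0.73 ± 0.21 (SD, n = 4) and at -0.81 without the surface, and stayed a call without any 1 array. Lman1, a cargo receptor that carries glycoproteins out of the endoplasmic reticulum, was at 0.56 ± 0.16 and Dad1, a subunit of the oligosaccharyltransferase, at 0.40 ± 0.13. Both calls ended without the surface, at 0.18 and 0.04, and that of Dad1 without replicate 3 (0.41) or 4 (0.37).

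Of 9 genes associated with foetal liver or hepatoma, the company of Afp, 5 were positive and 0 negative by limma (6 and 0 at an unadjusted p under 0.05), with a median of 0.39. All 5 calls were of genes printed in the left column, where 25.5% of tested clones were positive calls. Of all genes, 17.1% were positive calls. Without the surface 1 of the 5, Aldoa, was still called and the median was 0.15. Aldoa, a glycolytic aldolase low in adult hepatocytes, was at 0.70 ± 0.12 (SD, n = 4) and at 0.32 without the surface. Igf2, a foetal growth factor, was at 0.42 ± 0.07; its call ended without the surface (0.15) and without replicate 3 (0.42) or 4 (0.40).

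The genes whose ratios lay nearest to a member's over the 4 arrays were named by root mean square difference, with no claim of shared function. S100a11 was nearest to the clone of A2m and Mug1l1, at 0.0226, Cand1 to Afp at 0.0358 and Rab11a to Orm1 at 0.0407. Eif5, Ybx1 and Sts followed, at 0.0333, 0.0467 and 0.0436. All 6 were printed in the left column, as were these members. On the negative side Spry1 was nearest to Tf (0.0813), Marchf2 to Fetub (0.0817), Tceal9 to Apoh (0.0867) and Dlg1 to Apoe (0.109). Next came Ykt6 for Tf (0.111), Tceal9 for Fetub (0.118), Tor1a for Apoh (0.0899) and Tspo for Apoe (0.113). The members on this side were printed in the right column, as were Tceal9, Tor1a, Dlg1 and Tspo. Spry1 was in the left column, and Ykt6 and Marchf2 had spots in both.

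Of 7688 spots, between 6499 and 6517 carried a ratio on an array, and 1031 had none on any array. The 4 arrays correlated between 0.46 and 0.76 over spots (Pearson), lowest for replicates 1 and 2. The number of arrays limits the precision, and the single control pool leaves the spread between control rats out of every value.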

How the data were processed

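Liver RNA of 4 ciprofibrate-treated rats was compared with one control pool on cDNA arrays with both RNAs on each array, per the labels. The value the authors deposited for each spot carries no unit; from the values it is log10 of a ratio, since 10 to its power, in thousandths, was whole within 0.02 for at least 99.99% of the spots of each array, against 2.72% to 3.07% with base 2. Which dye, scanner, background correction or normalization was used is not given in the sources used here. Medians of the deposited log10 values were -0.017, -0.035, -0.028 and -0.046 on replicates 1 to 4. Scale and direction are thus inferred, and any centring by the authors stays unknown. The value that recurred on 1171 to 1189 spots of an array was read as a missing ratio.

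Values were converted to log2. Symbols came from an older platform annotation, which gave 5169 probes 1 symbol and 83 several and did not list 2436; 5140 symbols were updated through the GRCr8 gene table by Entrez number. Spots of one listed clone were averaged, arrays were centred on their median, and 4704 clones (2644 genes for lists) with 4 values were tested against 0 in R 4.3.3 with limma 3.58.1 and Benjamini-Hochberg adjustment. With 4 arrays the smallest p of an exact sign-flip test is 0.125. The test was tried on simulated data. The position surface is a robust loess fit of span 0.05 over an inferred layout of 31 by 31 spots a block.

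Members and lists were chosen with earlier results of these data known. Named genes were every member clone, up to 2 called genes of each sign per list, and the 2 genes nearest to each member. Other settings tried are given at the end.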

Additional observations from a re-analysis of the deposited data

Results flagged for a closer look

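Afp is listed here because 1 array lay far from the other 3. Replicate 2 was at 0.83 (log2) and the other arrays between 0.42 and 0.45, so that the gap to the nearest array made up 0.937 of the range. Its ratios on these arrays also chose the gene, so this is a description and no test. Chance alone lists about 1 group in 20 by such a gap, and 7 clones were looked at. Replicate 2 was the most extreme array for the other 6 clones as well, with gaps of 0.373 to 0.669 of the range. The cause was not tested.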

How the results depend on the processing

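The 7 member clones gave 98 means under the alternatives, of which 91 moved by less than 1 SD between arrays, 7 by more and 0 changed sign. The 7 were Afp at 0.19 with the recurring value kept and, with the surface removed at spans 0.05 and 0.15, Afp at 0.27 and 0.29, Orm1 at 0.17 and 0.20, and the clone of A2m and Mug1l1 at 0.24 and 0.23. The SD was each clone's own, so a clone with a wide spread had to move further to be counted. Apoe, with an SD of 0.48, was at -0.33 without replicate 2 and is among the 91. The median of the member clones lay between -0.70 and -0.33 in all 16 alternatives. Its sign follows from the split into 4 negative and 3 positive clones, which these same ratios chose. Over all clones, the 638 positive and 706 negative calls became 993 and 462 with the recurring value kept and 1148 and 1211 with array weights. Positive calls were 134 and 144 with the surface removed at spans 0.05 and 0.15, and 380 with block medians removed, while negative calls were 531 at span 0.05. With one row per gene 439 were negative. Leaving out 1 array gave 99 (without replicate 3) to 872 (without replicate 2) positive and 323 (without replicate 3) to 895 (without replicate 2) negative calls. Each of these fits had 3 arrays, and the cause of the differences between them was not tested. Of 20 named list genes, 12 positive and 8 negative, 2 and 6 were still called without the surface, 12 and 8 without replicate 2, 8 and 5 without replicate 1, 3 and 4 without replicate 3, and 3 and 6 without replicate 4. List counts moved likewise: positive calls of carriers and of acute phase genes were 0 (limma) without replicate 1, 3 or 4, and those of foetal liver genes 1 without replicate 3 and 2 without replicate 4. No paired analysis was possible because the arrays form a single group. The table holds no intensities, so signal over background is unknown.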

Other observations

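Markers of other liver cell types went both ways. Of 4 macrophage markers 2 were positive and 1 negative, or 0 and 1 without the position surface (limma; 2 and 1 at an unadjusted p under 0.05). C1qb, a complement subunit made by Kupffer cells, was at -1.23 ± 0.53 (SD, n = 4), while C1qc, from the same complex, was at 0.31 ± 0.10. C1qc was not called without replicate 1, 3 or 4, at 0.35, 0.32 and 0.31. Of 9 stellate and fibroblast markers 3 were positive and 1 negative, or 0 and 2 without the surface (1 and 2 at an unadjusted p under 0.05), with Acta2, smooth muscle actin, at -0.61 ± 0.27 and at -1.0 without it. Both endothelial markers were called, Kdr at 0.40 ± 0.21 and Cdh5 at -0.85 ± 0.85, and 0 without the surface (1 at an unadjusted p under 0.05). The Cdh5 call ended without replicate 1 (-1.01), 3 (-0.46) or 4 (-0.83), and replicate 3 alone was at -2.02. That of Kdr ended without replicate 3 (0.43) or 4 (0.38). Of 2 bile duct markers 1 was positive (Spp1, 0.43 ± 0.11, not called without replicate 3 at 0.47), and without the surface the other, Anxa4, was a negative call at -0.58. Of 2 red cell markers Hbb was a negative call at -0.88 ± 0.24, held at -0.82 without the surface. Of 4 leukocyte markers 1 was positive and 1 negative, and 0 without the surface, also at an unadjusted p under 0.05. Of the 16 panel genes used to read the sign 5 were positive and 1 negative calls, or 3 and 1 without the surface. These genes were named after their values were seen.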
